A study of Mus musculus with 12 samples.

Results

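Fibroblasts of mouse hind limb joints that carry *Lrrc15* and *Il1rl1* among other genes were described in single-cell RNA sequencing (scRNA-seq) data. A cell counted as one of them, called a member here, when more than 500 and fewer than 5000 genes were detected in it, with at least 4 of the fibroblast genes *Dcn*, *Lum*, *Gsn*, *Fbln1*, *Pdpn*, *Pdgfra* and *Serpinf1*, at least 3 of the member genes *Lrrc15*, *Il1rl1*, *Barx2*, *Crabp2* and *Col5a3*, and at most 2 of the excluding genes *C1qtnf3*, *Spon2*, *Matn4*, *Angptl1* and *Tnmd*. A gene was detected in a cell from 1 unique molecular identifier (UMI), the tag of a single captured RNA molecule. The rule found 1119 members among 21042 deposited cells (5.32%). They were 5.54% of the 20213 cells within the limits on detected genes and 6.81% of the 16430 fibroblasts, leaving 15311 other fibroblasts. Members were chosen by the detection of these genes, whose levels are therefore given below as values without a test.

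The study followed serum transfer-induced arthritis, a model in which antibodies of arthritic K/BxN mice set off a joint inflammation that rises and then subsides. Wild-type C57BL/6 males of 8 to 10 weeks received 100 µl of this serum into a vein, and cells of the hind limb joints lacking CD45, a surface protein of immune cells, were sorted and captured with the 10x Genomics 3′ version 2 chemistry. There were 12 libraries, each from a pool of 3 animals, with 3 libraries per group. The label rest stands for day 0 without serum, peak for 7 to 9 days after it, resolving for 15 days and resolved for 22 days, and the unit of every test is the library.

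The kept cells of a library held 7739438 to 16750555 UMIs, and 0 barcodes were shared between libraries. Members summed to 853425 to 2930033 UMIs in the 6 libraries with at least 50 members, and to 120095 to 212149 UMIs in rest 1, peak 3, resolving 3 and resolved 3, which had 11 to 23 members. Peak 1 and resolving 1, with 2 members and 1 member, were too small for levels of genes and enter the shares of cells only. The libraries go against their labels. Barcodes carry suffixes 1 to 12 in the order rest 1, peak 1, resolving 1, resolved 1, rest 2 and so on to resolved 3, and runs of 3 suffixes group libraries of different labels: rest 1, peak 1 and resolving 1 (suffixes 1 to 3), resolved 1, rest 2 and peak 2 (4 to 6), resolving 2, resolved 2 and rest 3 (7 to 9), and peak 3, resolving 3 and resolved 3 (10 to 12). In the summed members of 10 libraries the nearest library shared the run in 6 of 10 and the label in 0 of 10. All 6 were the libraries with at least 50 members, 3 in suffixes 4 to 6 and 3 in 7 to 9. The paper reports more *Ccl2*, *Timp1*, *Cxcl1* and other transcripts at peak than at rest in *Hk2*-positive fibroblasts, by a test over cells. It found most of them without a significant difference at resolved. Whether the deposited files carry the right labels cannot be told from the data. Each label below therefore names a library and may not give its day. A run is read from the barcodes, and its relation to the days was not tested. Values are therefore given by label and by run, and the results by run are given for 10 libraries and again for the 6 alone.

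Fibroblasts of the joint divide into lining cells, which face the cavity and secrete lubricin, and sublining cells, which build the collagen framework beneath and around it. *Lrrc15*, a leucine-rich repeat membrane protein induced by TGF-beta, and *Cthrc1*, a secreted protein that limits collagen deposition, are known from fibroblasts of scars and tumour stroma. *Il1rl1* encodes ST2, the receptor through which the alarmin IL-33, released by damaged cells, acts on its targets.

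The member genes were unevenly present in members. *Col5a3*, a chain of type V collagen, had a UMI in 93.7% of members, and *Crabp2*, which carries retinoic acid to the nucleus, in 88.5% of them. *Il1rl1* followed with 62.2%, *Lrrc15* with 54.1% and the homeobox factor *Barx2* with 38.8%. In the other fibroblasts the shares were 22.5% for *Col5a3*, 24.8% for *Crabp2*, 5.86% for *Il1rl1*, 13% for *Lrrc15* and 5.52% for *Barx2*. Endothelial cells, used as the background that free RNA leaves, had 2.71%, 1.36%, 0.471%, 0.412% and 0.236% in the same order. Members were the deeper cells, with a median of 10522 UMIs and 2796 genes against 5721 UMIs and 1876 genes in other fibroblasts, and 3189 UMIs in endothelial cells. They were deeper in 10 of 10 libraries. With every cell thinned to 2000 UMIs, *Il1rl1* was found in 30.4% of members, 2.86% of other fibroblasts and 0.264% of endothelial cells, and *Lrrc15* in 18.8%, 5.53% and 0.264%. Members were chosen on these genes with all UMIs, so a higher presence after thinning follows from the rule, which also takes deeper cells more often.

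Most members met the rule narrowly. Exactly 3 of the 5 member genes were present in 770 members (68.8%), 4 in 282 (25.2%) and all 5 in 67 (5.99%). The most frequent combination was *Il1rl1* with *Crabp2* and *Col5a3*, in 285 members, 239 of them in suffixes 4 to 6 and 40 in 7 to 9. *Lrrc15* with *Crabp2* and *Col5a3* came next, in 199 members, but 59 of these lay in suffixes 4 to 6 and 119 in 7 to 9. Members of the 2 runs thus tended to enter by different genes: *Il1rl1* was present in 76.2% of members of suffixes 4 to 6 and 45.9% of those of 7 to 9, *Lrrc15* in 37.8% and 74.3%. After thinning these were 33.3% and 27.5% for *Il1rl1* and 11.3% and 28.9% for *Lrrc15*, the members of 4 to 6 being deeper (median 12251 against 7928 UMIs). Fibroblasts with exactly 2 member genes, just outside, numbered 1346 and had a median of 7841.5 UMIs, against 9800.5 UMIs in the 770 just inside. *Cthrc1*, which is not part of the rule, was at 1414 CPM (UMIs per 1000000 UMIs of the summed cells) just inside and 1124 just outside. On the other side of the rule, the 464 cells with exactly 3 excluding genes, which were left out, had 2469 CPM of *Cthrc1* and 189 CPM of *Lrrc15*, against 1821 and 112 in the 527 members with exactly 2. These levels pool the libraries, and the cells on either side of the limit were not compared library by library.

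Whether *Cthrc1* set the members apart depended on the cells beside them. It was present in 94.5% of members, 47.5% of other fibroblasts and 11.5% of endothelial cells, and in 82.0%, 36.3% and 6.01% after thinning. Its level in members was 1126 CPM in rest 1, 1132, 1333 and 1368 in the libraries of suffixes 4 to 6, 1997, 2432 and 1926 in those of 7 to 9, and 566, 551 and 1033 in those of 10 to 12. Other fibroblasts had 268 CPM (rest 1), 918, 882 and 1195 (suffixes 4 to 6), 1673, 2177 and 2039 (7 to 9) and 176, 278 and 176 (10 to 12). The mean log2 difference was 0.87 ± 0.92 (SD) over 10 libraries but 0.24 ± 0.22 over the 6, where other fibroblasts of the same library carried nearly as much. Against other fibroblasts matched for UMIs it was 0.34 ± 0.76, higher in members in 3 of 8 libraries and lower in 5. Against other fibroblasts without markers of skeletal cells, a comparison chosen after the data were seen, it was 1.69 ± 1.28 and higher in 10 of 10 libraries, but members with such markers were kept, so that the comparison is one-sided. *Col1a1*, the chain by which matrix production is usually read, was at log2 -0.10 in members relative to other fibroblasts and higher in 3 of 10 libraries. By the one-sided comparison it was at 0.58 and higher in 10 of 10. The members are named below by their genes.

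Of the member genes, *Lrrc15* lies at chr16:30269302-30283256 on the minus strand, *Il1rl1* at chr1:40429570-40465415 on the plus strand, *Barx2* at chr9:31846044-31913462 and *Col5a3* at chr9:20770050-20815067 on the minus strand, and *Crabp2* at chr3:87948666-87953376 on the plus strand, with *Cthrc1* at chr15:39076932-39087121 on the plus strand (GENCODE M21, GRCm38). Between suffixes 4 to 6 and 7 to 9 *Lrrc15* and *Il1rl1* varied in opposite directions in members, and the 250 bases before their starts are given from RefSeq GRCm38.p6 together with those of *Col5a3*, on the strand of the gene and with matches of either strand in capitals. *Lrrc15* (chr16:30283255-30283504, minus strand) carries the AP-1 site TGACTCA on the strand of the gene, beginning 53 bases before the start, a motif that 5.20% of 32851 promoters have.
Lrrc15: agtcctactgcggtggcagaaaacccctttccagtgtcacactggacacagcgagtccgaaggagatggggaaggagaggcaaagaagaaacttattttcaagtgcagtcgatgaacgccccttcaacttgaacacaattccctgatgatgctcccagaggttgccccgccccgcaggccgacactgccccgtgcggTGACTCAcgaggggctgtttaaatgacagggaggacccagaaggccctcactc
*Il1rl1* has a pair of listed starts. The upstream one (chr1:40429320-40429569, plus strand) had none of the 7 motifs searched.
Il1rl1 upstream start: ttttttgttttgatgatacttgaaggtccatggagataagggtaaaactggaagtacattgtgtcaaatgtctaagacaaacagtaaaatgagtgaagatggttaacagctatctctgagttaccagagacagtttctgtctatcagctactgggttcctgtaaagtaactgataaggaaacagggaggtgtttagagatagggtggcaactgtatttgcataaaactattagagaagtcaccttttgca
The downstream one (chr1:40439379-40439628, plus strand) has CCAAT on the opposite strand, read as ATTGG, at -57, a motif in 37.4% of promoters.
Il1rl1 downstream start: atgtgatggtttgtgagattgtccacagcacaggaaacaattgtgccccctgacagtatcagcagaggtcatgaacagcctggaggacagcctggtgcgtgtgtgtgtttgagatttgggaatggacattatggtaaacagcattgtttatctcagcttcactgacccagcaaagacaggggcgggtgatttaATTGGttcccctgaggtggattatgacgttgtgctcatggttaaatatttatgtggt
*Col5a3* (chr9:20815068-20815317, minus strand) has CCAAT beginning at -122.
Col5a3: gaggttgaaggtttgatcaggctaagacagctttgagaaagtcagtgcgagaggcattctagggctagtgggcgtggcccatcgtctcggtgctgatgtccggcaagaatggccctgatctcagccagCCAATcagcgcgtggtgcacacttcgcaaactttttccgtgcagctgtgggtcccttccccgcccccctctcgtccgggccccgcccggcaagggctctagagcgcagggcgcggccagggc
These matches describe the sequence, and nothing was measured on binding. The set of promoters used here did not hold those of *Barx2*, *Crabp2* or *Cthrc1*, so their sequences are not given.

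Members were concentrated in 6 of the 12 libraries. In suffixes 1 to 3 their share of fibroblasts was 0.907% (13 of 1434 cells, 0.531 to 1.54%) in rest 1, 0.188% (2 of 1066 cells, 0.0515 to 0.681%) in peak 1 and 0.104% (1 of 957 cells, 0.0184 to 0.59%) in resolving 1, each with its 95% interval. In suffixes 4 to 6 it was 17.1% (187 of 1095 cells, 15 to 19.4%) in resolved 1, 13.2% (200 of 1513 cells, 11.6 to 15%) in rest 2 and 16.9% (235 of 1389 cells, 15 to 19%) in peak 2, and no library outside this run came higher. In suffixes 7 to 9 it was 6.23% (92 of 1477 cells, 5.11 to 7.58%) in resolving 2, 10.6% (252 of 2368 cells, 9.46 to 11.9%) in resolved 2 and 8.91% (92 of 1033 cells, 7.32 to 10.8%) in rest 3. In suffixes 10 to 12 it was 0.571% (11 of 1927 cells, 0.319 to 1.02%) in peak 3, 2.08% (23 of 1104 cells, 1.39 to 3.11%) in resolving 3 and 1.03% (11 of 1067 cells, 0.577 to 1.84%) in resolved 3. The intervals count cells and leave out the variation between pools. Together 1058 members (94.5%) came from suffixes 4 to 9 and 61 from the rest.

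**Figure D1:**
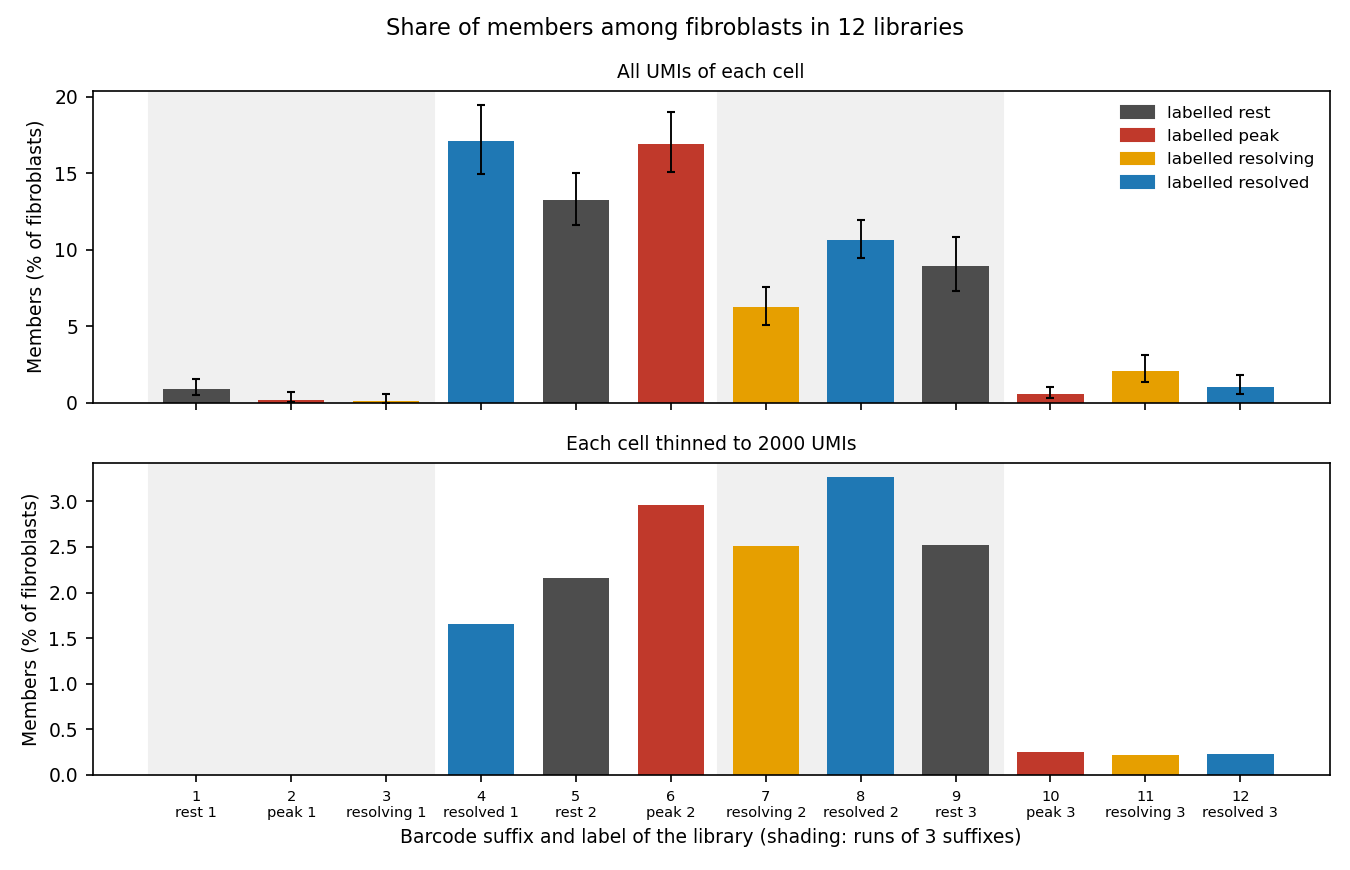
Share of fibroblasts that are members in each library, with all UMIs (top) and with cells thinned to 2000 UMIs (bottom). The horizontal axis gives the libraries by suffix with alternate runs shaded, the vertical axis and the bars the share in percent, and the colour the label. Error lines, in the top panel only, give the 95% Wilson interval.

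The share differed between runs. Means ± SD of 3 libraries were 0.400 ± 0.441% in suffixes 1 to 3, 15.7 ± 2.18% in 4 to 6, 8.59 ± 2.22% in 7 to 9 and 1.23 ± 0.775% in 10 to 12 (F = 58.9, exact p = 0.00013 over 15400 ways of splitting the 12 libraries into 4 sets of 3). Leaving out 1 library at a time left F at 42.9 to 87.3, with an exact p of at most 0.00078. After thinning to 2000 UMIs, 194 members remained and the means were 0% (0 of 2897 cells, up to 0.104%), 2.26 ± 0.657%, 2.76 ± 0.431% and 0.231 ± 0.0168% (F = 38.2, exact p = 0.0020). At equal depth the share of suffixes 7 to 9 was thus no longer below that of 4 to 6. Runs were taken as groups because earlier results of these data had shown libraries more alike within them. These p are therefore not those of a grouping fixed without knowledge of the data. The genes of the rule varied outside the members too. In other fibroblasts *Crabp2* was detected in 8.78%, 34.6%, 40.5% and 13.1% of cells of the 4 runs in order of suffix, and *Col5a3* in 11.2%, 29.9%, 36.2% and 10.8%. Both genes were thus more frequent in the fibroblasts around the members in suffixes 4 to 9 than in the other runs, although 4 to 6, with the highest share of members, came below 7 to 9.

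By label, the share of members did not pass a test. The mean ± SD was 7.68 ± 6.25% in libraries labelled rest, 5.89 ± 9.55% in peak, 2.81 ± 3.13% in resolving and 9.58 ± 8.08% in resolved. The differences from rest were -1.78 percentage points at peak (exact p = 0.8), -4.87 at resolving (exact p = 0.3) and 1.91 at resolved (exact p = 0.7), and with 3 libraries each the smallest p that can be reached is 0.1. Each label held libraries of both high and low share, which sets the large SD. The sign at peak turned positive without peak 1 (1.07), rest 2 (0.986) or peak 3 (0.876), and at resolved it turned negative without rest 1 (-1.48) or resolved 1 (-1.84).

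Members were set beside the other fibroblasts of their library as a description, without a test, because the rule makes some of the differences. The rule genes came first: *Il1rl1* was at 211 against 33.5 CPM, *Barx2* at 85.6 against 16.8 CPM, *Col5a3* at 307 against 82.8 CPM, *Crabp2* at 433 against 181 CPM and *Lrrc15* at 130.3 against 48.4 CPM, each as the mean of 10 libraries. Of 5373 genes, 14 (0.261%) were higher in members, by a mean of more than 1 log2 unit and in every library, and 137 (2.55%) lower by the same measure, with a median difference of 0.04 over all genes. In the 6 libraries 41 (0.773%) were higher and 186 (3.51%) lower of 5305.

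Among genes outside the rule, *Timp1*, the secreted inhibitor of matrix metalloproteinases, stood out by its amount. Members had 1441 CPM (rest 1), 7231, 5952 and 4933 (suffixes 4 to 6), 3115, 2003 and 2099 (7 to 9) and 2194, 782 and 783 (10 to 12), and other fibroblasts 588 CPM (rest 1), 3519, 3572 and 2654 (suffixes 4 to 6), 948, 850.0 and 764 (7 to 9) and 331, 316 and 322 (10 to 12). It was higher in members by log2 1.37 ± 0.55 over 10 libraries, 1.18 ± 0.36 over the 6 and 0.85 ± 0.36 against other fibroblasts matched for UMIs in 8 libraries, always in every library. *Cd44*, the receptor for hyaluronan, was at 462 against 204 CPM on average (log2 1.08 ± 0.61), and *Tm4sf1*, a membrane protein of the tetraspanin type, at 929 against 427 CPM (log2 1.09 ± 0.68). The metalloproteinase *Mmp19* was at 78.7 against 33.9 CPM, and *Glipr1*, a secreted protein of the CAP family, at 23 against 6.94 CPM. In the 6 libraries 7 of the 14 were not among the 41 genes counted there. *Mmp19* was at 0.67, *Tm4sf1* at 0.74, *Cd44* at 0.98, *Crabp2* at 0.82, *Kcnn4* at 0.58 and *Ociad2* at 0.54, under the limit of 1. *Islr2* stayed at 1.01 and missed only the minimum of 20 CPM. All 7 were still higher in members in 6 of 6 libraries. *Cenpe*, the kinetochore motor of dividing cells, was at 20.6 against 8.18 CPM (log2 1.44 ± 0.82, and 0.61 at matched UMIs). The calcium-gated potassium channel *Kcnn4* and *Ociad2* turned lower in members when cells were thinned to 2000 UMIs (log2 -1.02 and -0.47), a setting that also chose the members anew, whereas against other fibroblasts matched for UMIs they were at 0.76 ± 0.68 and 0.76 ± 0.54. *Islr2* completed the 14 at log2 1.29 ± 0.84.

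Genes of cartilage and bone led those that were lower in members. *Col2a1*, the main collagen of cartilage, was at 12.1 against 716 CPM (log2 -5.39 ± 1.64), and *Ostn*, the bone peptide osteocrin, at 5.7 against 133 CPM (log2 -5.16 ± 2.18). *Coch* (-5.15), the cartilage genes *Mia* (-5.02), *Cytl1* (-4.65), *Col9a2* (-4.40) and *Lect1* (-4.25), and osteocalcin, *Bglap* (-4.20), followed. At matched UMIs *Coch* was at -2.32, higher in members in 3 of 8 libraries, and *Cytl1* at -2.80, higher in 2 of 8. *Mia* (-4.07), *Col9a2* (-3.41) and *Bglap* (-3.81) were lower there in 8 of 8. Among the other fibroblasts 5351 cells (34.9%) carried at least 3 markers of tenocytes, osteoblasts or chondrocytes. With those cells left out, as for *Cthrc1* above, 27 genes were higher and 158 lower, *Col2a1* moved to -0.49, while *Ccl11*, the chemokine eotaxin, went from -4.39 to -5.11. *Ccl11* was at 6.06 CPM (rest 1), 1.88, 4.6 and 4.1 (suffixes 4 to 6), 1.09, 4.24 and 36.3 (7 to 9) and 0, 0 and 0 (10 to 12) in members and 77.2 CPM (rest 1), 55.4, 124 and 71.4 (suffixes 4 to 6), 41, 28.3 and 53.3 (7 to 9) and 151, 67.7 and 143 (10 to 12) in other fibroblasts. The removal itself takes cartilage transcripts out of the others, so the value of *Col2a1* follows from it. At matched UMIs *Ccl11* was at -1.70 ± 1.95, higher in members in 1 of 8 libraries. That comparison also lacks peak 3 and resolved 3. The rule gene *Gsn*, which codes for the actin-severing gelsolin, was at 2796 against 10481 CPM, and *Dcn* at 8963 against 15462 CPM. Their log2 differences of -2.29 and -0.91 became -0.93 and -0.37 at matched UMIs, each lower in members in 7 of 8 libraries.

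Lists of matrix genes gave values that depend on the cells beside the members. Some of the 18 gene lists hold rule genes (*Dcn* and *Lum* in small leucine-rich proteoglycans, *Fbln1* in elastic fibre genes, *Col5a3* in fibrillar collagens, *Crabp2* in retinoid genes, *Il1rl1* in the IL-1 and IL-33 axis, *Barx2* in limb factors). Of 11 fibrillar and fibril-associated collagens 1 was higher in members (the rule gene *Col5a3*) and 1 lower, with a median of -0.09 against 0.04 over all genes. The median became 0.58 against other fibroblasts without skeletal markers. There 8 of the 11 were higher in every library, against 385 of 5388 genes in all. By more than 1 log2 unit as well, 2 of the 11 were higher, against 27 of all genes. That removal was made among the others only, while 188 members with at least 3 tenocyte markers and 90 with at least 3 chondrocyte markers were kept, so the comparison is one-sided. *Col3a1* was higher in 10 of 10 libraries but by little, log2 0.41 ± 0.38 over 10 and 0.14 ± 0.10 over the 6. *Col1a1* stood at -0.37 over the 6 libraries and at 0.58 without the skeletal cells. No statement on the collagen of members relative to other fibroblasts is drawn from these values. Proteoglycans ran lower, 5 of 14 with none higher (median -1.23), against 2.55% of all genes lower. Over the 6 libraries 10 of 13 were lower (-1.38), against 3.51% of all genes. At matched UMIs 4 of 14 were lower (-0.82), but without the skeletal cells 2 of 13 were lower and the median was -0.19. Wnt antagonists, R-spondins and ligands were lower in 2 of 9 (median -1.44, and -1.20 without the skeletal cells). Secretory genes were 0 of 31 in either direction with 26 of them positive (median 0.19), against 2916 of all 5373 genes. At matched UMIs 21 of the 31 were positive (median 0.07). Glycolysis had 0 of 15 with a median of 0.54, or 0.36 at matched UMIs.

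Cell cycle genes had a median of 0.58 (0 of 13 higher), 0.97 over the 6 libraries (6 of 13 higher) and 0.24 at matched UMIs (0 of 13). Against 2.55% of all genes lower and 0.261% higher, dissociation and immediate early genes were lower in 5 of 19 (median -0.84), elastic fibre genes in 4 of 16 (-0.17, and 0.10 over the 6 libraries) and inflammatory ligands in 3 of 19 (-0.43). Dissociation and immediate early genes were lower in 3 of 19 (-0.82) over the 6 libraries and 1 of 19 (-0.53) at matched UMIs. Elastic fibre genes were lower in 2 of 16 (-0.17) at matched UMIs. The median of inflammatory ligands turned to 0.19 over the 6 libraries and to 0.33 at matched UMIs, with 0 of 18 lower, so that its sign depended on the setting. 1 gene was higher in each of the IL-1 and IL-33 axis (7 genes, median -0.17, but 0.16 over the 6 libraries and 0.14 at matched UMIs), retinoid genes (9, -0.89, 1 lower) and limb factors (18, -0.21, 1 lower), in each case the rule gene. Matrix metalloproteinases and inhibitors had 2 higher, *Timp1* and *Mmp19*, and 1 lower of 10 (-0.10), and BMP ligands and antagonists 1 lower of 11 (-0.89). With 10 libraries and all other fibroblasts, none was higher among other collagens (0 of 10, median -0.36), myofibroblast and scar matrix (0 of 26, 0.01, but 2 of 26 and 0.41 without the skeletal cells), collagen processing (0 of 26 with 1 lower, 0.13) and TGF-beta genes (0 of 18, -0.01). *Hk2*, the hexokinase the study followed, was at log2 -0.26 ± 0.47 but at 0.29 ± 0.30 at matched UMIs in 8 libraries, *Postn* at -0.33 ± 0.75, *Acta2* at 0.34 ± 1.25, *Ccl2* at 0.54 ± 0.45, *Cxcl1* at 0.41 ± 0.34, *Cxcl2* at 0.24 ± 1.12 and *Mmp3* at 0.43 ± 1.40, all below the limit of 1.

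Beside 3 sets of fibroblasts with their own markers, in the 6 libraries and with genes chosen after the values were seen, members differed from each. Against the fibroblasts of the *C1qtnf3* set (2024 over all 12 libraries), 133 genes were higher and 167 lower. Members had more of the chemokine *Cxcl5* (log2 2.24) and the growth factor *Ereg* (2.43), and less of the cartilage matrix protein *Cilp2* (-5.05) and the secreted *Angptl7* (-4.33). *Cthrc1* was near equal (-0.28), as it was against the *Pi16* set (-0.12). Against lining fibroblasts (635 over all 12 libraries) 310 were higher and 339 lower. The lining set also held endothelial and perivascular transcripts, such as *Pecam1* (137 CPM against 2.26 in members) and *Rgs5* (373 against 23.5). Lubricin, *Prg4*, was at 4184 CPM in members and 53372 in lining cells (-3.79), whereas the metalloproteinase *Mmp3* was at 575 and 36.5 (4.23). The osteoclast factor RANKL, *Tnfsf11*, was at 42.7 CPM in members and 0 in lining cells. Against fibroblasts of the *Pi16* set (1914 over all 12 libraries) 57 were higher and 175 lower. *Timp1* (1.43), *Spp1* (1.99) and the activin chain *Inhba* (1.71) were higher and *Dpp4* (-3.17) and *Myoc* (-5.24) lower. Cells that met both rules, 25 for the lining and 151 for the *Pi16* set, were counted as members. A further 847 fibroblasts had at least 3 member genes and at least 3 excluding genes; they are in neither the members nor the *C1qtnf3* set compared here but among the other fibroblasts.

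Within members, expression followed the runs. By edgeR, 1561 of 9499 genes (16.4%) differed over the 4 runs in 10 libraries, 348 of them highest in suffixes 1 to 3, 685 in 4 to 6, 180 in 7 to 9 and 348 in 10 to 12. Suffixes 1 to 3 have only rest 1, which is assumed to vary like the others. The count was 967 without peak 2 and 974 without resolved 1. Between the 6 libraries with at least 50 members, 1129 of 9454 genes (11.9%) differed, 480 (5.08%) higher in suffixes 4 to 6 and 649 (6.86%) higher in 7 to 9. Of these, 768 were also among the 1561. In what follows log2 differences are those of 7 to 9 over 4 to 6 by edgeR with their SE, unless stated. Counts and medians of lists over the runs leave out the rule genes. What sets the runs apart was not tested. The differences below are within members and are not shown to be particular to them. Whether a difference by run also differed between members and others was tested separately. In the 6 libraries 78 of 11525 genes passed that test, given further below.

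The chemokine *Cxcl5* was among the 15 named genes of lowest p over the runs, as were *Saa3*, *Hp*, *Slpi* and *Mif*. *Cxcl5*, which draws neutrophils, was at 0 CPM in rest 1, 1656, 1693 and 1479.8 in the libraries of suffixes 4 to 6, 425, 306 and 599 in those of 7 to 9, and 0, 0 and 0 in those of 10 to 12. That is at least 269-fold more in suffixes 4 to 6 than in 10 to 12 (edgeR adjusted p over runs = 2.92e-07), with log2 -1.93 ± 0.20, adjusted p = 0.000193 for 7 to 9 over 4 to 6. Serum amyloid A3, *Saa3*, was at 0 CPM (rest 1), 873, 689 and 544 (suffixes 4 to 6), 1522, 1279 and 1494 (7 to 9) and 0, 0 and 0 (10 to 12), at least 232-fold more in suffixes 7 to 9 than in 10 to 12 (edgeR adjusted p over runs = 2.08e-07). Both thus had 0 UMIs in the members of the 4 small libraries, but they were highest in different runs (log2 0.97 ± 0.16, adjusted p = 0.0023 for *Saa3* in 7 to 9 over 4 to 6). *Hp*, which binds free haemoglobin, was at 0 CPM (rest 1), 504, 771 and 453 (suffixes 4 to 6), 956, 662 and 860.1 (7 to 9) and 5.84, 47.1 and 0 (10 to 12), and did not pass between 7 to 9 and 4 to 6 (log2 0.46 ± 0.20, adjusted p = 0.152). The leukocyte protease inhibitor *Slpi* went with *Cxcl5*, at 6.06 CPM (rest 1), 1187, 663 and 1241 (suffixes 4 to 6), 477, 206 and 218 (7 to 9) and 0, 0 and 0 (10 to 12). *Cxcl5* and *Saa3* were therefore not highest in the same run. The cytokine *Mif* was at 285 CPM (rest 1), 1861, 1269 and 1461 (suffixes 4 to 6), 879, 827 and 1175 (7 to 9) and 315, 335 and 349.7 (10 to 12) (edgeR adjusted p over runs = 9.48e-06).

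Inflammatory ligands as a list were higher in suffixes 4 to 6. Of 23 tested in the 6 libraries 16 differed, 15 of them higher in 4 to 6, with a median of -1.39 against 0.01 over all genes and 11.9% of all genes called. *Cxcl13*, which guides B cells, was at 11.3, 30.9 and 10.2 CPM in suffixes 4 to 6 and 0, 0 and 0 in 7 to 9, at least 21.8-fold, and the median stayed at -1.39 with it set to this bound. *Cxcl14* was at 1005, 1498 and 868 CPM in suffixes 4 to 6 and 173, 101 and 258 in 7 to 9 (log2 -2.76 ± 0.30, adjusted p = 0.000193). *Il6* was at 143, 199 and 174 CPM in suffixes 4 to 6 and 67.8, 36.3 and 68 in 7 to 9 (log2 -1.71 ± 0.22, adjusted p = 0.000514). The run with less *Il6* was the one with more *Saa3*, and a relation between them was not tested. *Ccl2*, which recruits monocytes, was at 2617, 2586 and 2246 CPM in suffixes 4 to 6 and 979, 1487 and 1425 in 7 to 9 (log2 -0.99 ± 0.15, adjusted p = 0.00133), and its near paralog *Ccl7* differed by log2 -1.31 ± 0.12, though reads of such similar genes are hard to assign. *Cxcl1* was at 3659, 2839.9 and 2689.7 CPM in suffixes 4 to 6 and 1527, 1601 and 2095 in 7 to 9 (log2 -0.87 ± 0.15, adjusted p = 0.00294). *Cxcl2* (log2 -0.61 ± 0.29, adjusted p = 0.186) did not pass.

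**Figure D2:**
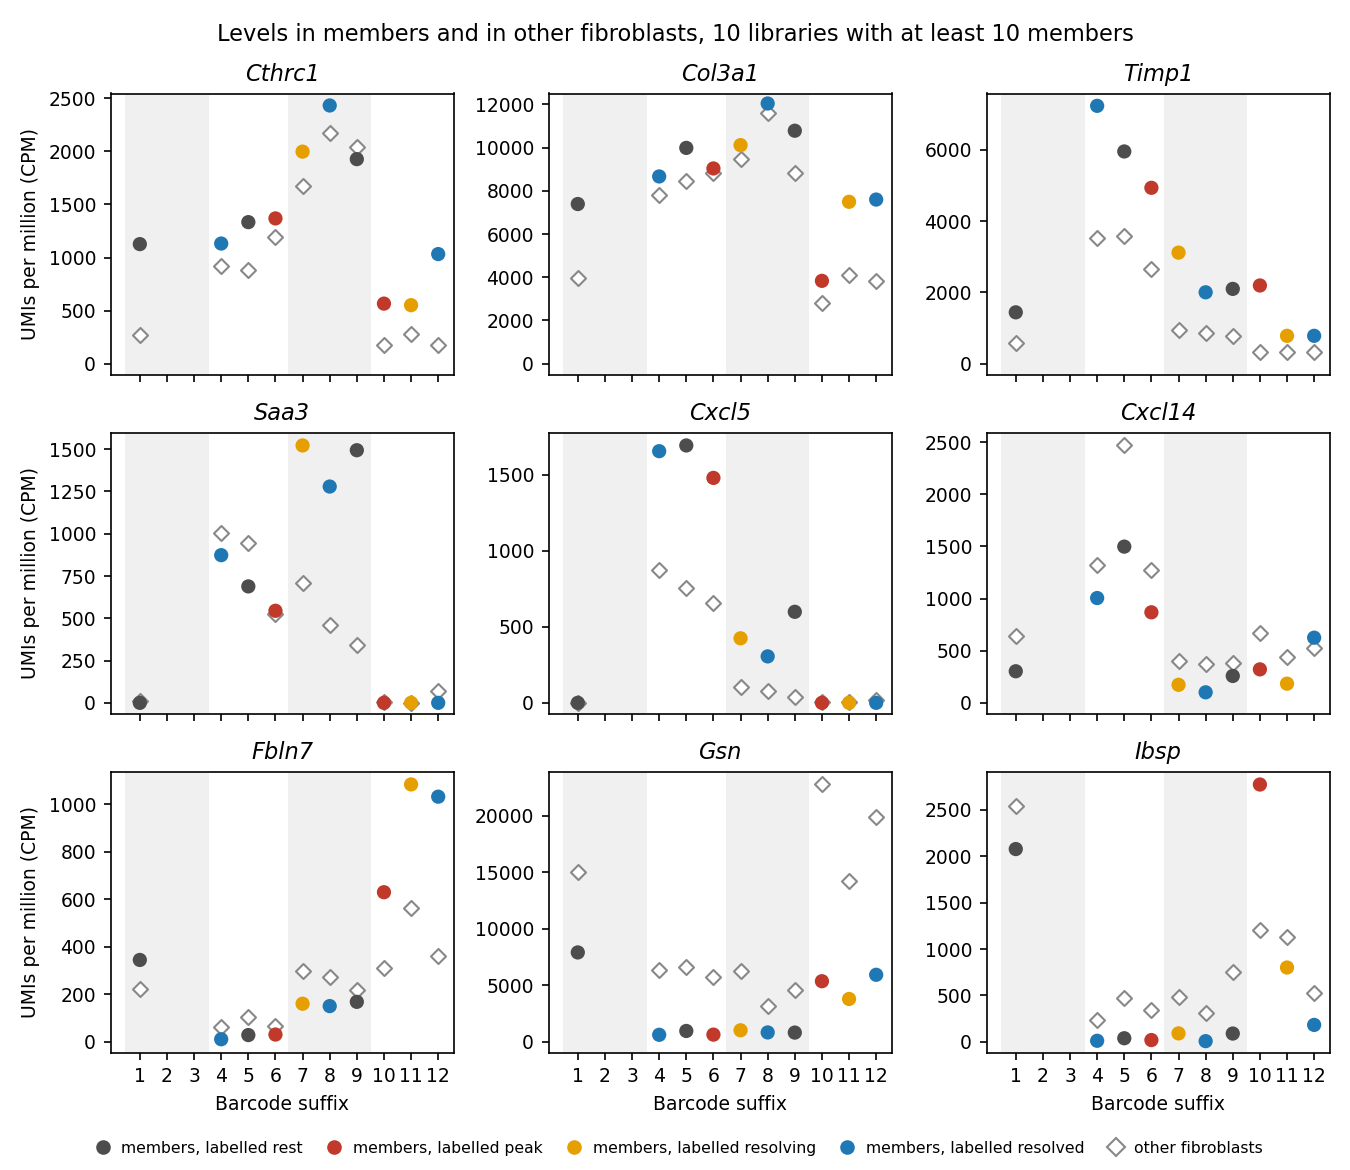
Levels of 9 genes in members (filled, coloured by label) and in other fibroblasts (open diamonds) of 10 libraries. The horizontal axis gives the libraries by suffix, the vertical axis the level in CPM, and each point is the sum of the cells of 1 library.

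Some genes of the IL-1 and IL-33 axis were higher in the same run as the chemokines. *Il1r1* was at 94.9, 86.5 and 86 CPM in suffixes 4 to 6 and 41.6, 49 and 50.4 in 7 to 9 (log2 -0.97 ± 0.14, adjusted p = 0.00113). *Il33*, the ligand of ST2, was at 59.1, 70.7 and 50.5 CPM in suffixes 4 to 6 and 14.2, 29.2 and 25.8 in 7 to 9 (log2 -1.37 ± 0.23, adjusted p = 0.00241). The rule gene *Il1rl1* itself, given without a test, was at 60.6 CPM (rest 1), 283, 246 and 290.1 (suffixes 4 to 6), 195, 219 and 185 (7 to 9) and 123, 240.4 and 266 (10 to 12) in members. Its level in members also depends on which of the 5 genes let a cell in. The list had 5 of 13 genes called, all higher in 4 to 6 (median -0.18). *Timp1* was also higher there, by the values above (log2 -1.38 ± 0.18, adjusted p = 0.000526). The activin chain *Inhba* was at 427, 295 and 299 CPM in suffixes 4 to 6 and 129, 142 and 173 in 7 to 9 (log2 -1.26 ± 0.17, adjusted p = 0.000696), and its antagonist follistatin, *Fst*, at 76.5, 49.7 and 65.9 CPM in suffixes 4 to 6 and 9.85, 9.43 and 9.37 in 7 to 9 (log2 -2.80 ± 0.23, adjusted p = 4.36e-05). Activin and the protein that binds it were thus higher in the same run, and BMP ligands and antagonists had 4 of 15 genes called, all in 4 to 6 (median -0.22). The Wnt antagonist *Sfrp1* was at 296, 261 and 313 CPM in suffixes 4 to 6 and 89.7, 78.3 and 30.5 in 7 to 9 (log2 -2.15 ± 0.24, adjusted p = 0.000213), in a Wnt list split 3 and 3 of 12 (median 0.31).

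The main fibrillar collagens did not pass between these runs, while several other matrix genes did. *Col1a1* was at 9555, 9330.3 and 10895 CPM in suffixes 4 to 6 and 9987, 12072 and 9363 in 7 to 9 (log2 0.02 ± 0.11, adjusted p = 0.919) and *Col3a1* at 8663, 9983 and 9032 CPM in suffixes 4 to 6 and 10111, 12038 and 10778 in 7 to 9 (log2 0.19 ± 0.11, adjusted p = 0.257). *Postn*, periostin, was at 1275, 1313 and 1473 CPM in suffixes 4 to 6 and 1209, 1808 and 1326 in 7 to 9 (log2 0.04 ± 0.14, adjusted p = 0.872). The list of fibrillar collagens had 1 of 11 genes called, higher in 4 to 6 (median 0.10). *Cthrc1* was higher in suffixes 7 to 9 than in 4 to 6, by log2 0.67 ± 0.12 (edgeR adjusted p = 0.00337), from the values given above. Fibronectin, *Fn1*, was at 1764, 2146 and 2120.5 CPM in suffixes 4 to 6 and 4038, 3853 and 3758 in 7 to 9 (log2 0.90 ± 0.11, adjusted p = 0.000343). *Fap*, a protease of activated fibroblasts, was at 36.9, 38.5 and 48.8 CPM in suffixes 4 to 6 and 78.8, 118 and 90.2 in 7 to 9 (log2 1.18 ± 0.17, adjusted p = 0.00102). Of 27 myofibroblast and scar matrix genes 14 differed, 9 of them higher in 7 to 9 (median 0.57). The rule gene *Lrrc15* was at 163 CPM (rest 1), 40.7, 52.7 and 65.2 (suffixes 4 to 6), 140.1, 208 and 156 (7 to 9) and 140.1, 245 and 91.6 (10 to 12), without a test. Tenascin C, *Tnc* (log2 -0.65 ± 0.13, adjusted p = 0.00735), went the other way. Several genes known from scar fibroblasts were therefore more abundant in the run where chemokines were lower, while type I collagen was not. Markers of other sets also differed in these members. Of the *Pi16* set 4 of 5 were higher in 7 to 9 (median 1.30), and of osteoblast markers 1 of 3 (1.19). The *C1qtnf3* set, whose genes are in the rule, had 2 of 5 (0.55) and tenocyte markers 1 of 6 (0.48), also in 7 to 9. Lining and chondrocyte markers were split 1 and 1, of 2 and 4 tested. Any bearing of this on the matrix genes was not tested.

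The other matrix lists did not all go in 1 direction. Small leucine-rich proteoglycans, which space collagen fibrils, had 5 of 12 called, all higher in 7 to 9 (median 0.68), beside the rule genes *Lum* at 1062, 1756 and 1383 CPM in suffixes 4 to 6 and 3322, 3005 and 2725 in 7 to 9 and *Dcn* at 3312, 4955 and 3696 CPM in suffixes 4 to 6 and 7813, 6489.9 and 5312 in 7 to 9. Other collagens had 5 of 10, all in 7 to 9 (median 0.61), led by *Col15a1* (log2 2.07 ± 0.31, adjusted p = 0.00122) and *Col18a1* (log2 1.69 ± 0.31, adjusted p = 0.00395) of basement membranes. These chains do not form the striated fibrils of type I collagen, and the microfibril chain *Col6a2* went with them (log2 1.05 ± 0.13, adjusted p = 0.000336). Perivascular markers in members summed to 19.6, 18.4 and 16.7 CPM in suffixes 4 to 6 and 23.0, 72.6 and 51.6 in 7 to 9. The 1 perivascular marker tested was called higher in 7 to 9 (log2 2.45). A link of these transcripts to the collagens was not tested. *Fbln7*, a fibulin that binds cells, was at 345 CPM in rest 1, 11.3, 28.8 and 31.1 in the libraries of suffixes 4 to 6, 161, 151 and 169 in those of 7 to 9, and 630.3, 1084 and 1033 in those of 10 to 12 (log2 2.69 ± 0.25, adjusted p = 0.000102, edgeR adjusted p over runs = 7.97e-07). Matrix metalloproteinases and inhibitors had 4 of 12, 3 in 7 to 9 (median 0.52), among them *Mmp2* at 642, 882 and 670.0 CPM in suffixes 4 to 6 and 1149, 1140.1 and 1322 in 7 to 9 (log2 0.66 ± 0.14, adjusted p = 0.0105). With less *Timp1* and more *Mmp2*, members of 7 to 9 had a lower ratio of this inhibitor to this enzyme. Elastic fibre genes were split 2 and 2 of 15 (median -0.12), TGF-beta genes 2 and 2 of 21 (0.11), with *Tgfbr2* higher in 7 to 9 (log2 0.93 ± 0.16, adjusted p = 0.00277).

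**Figure D3:**
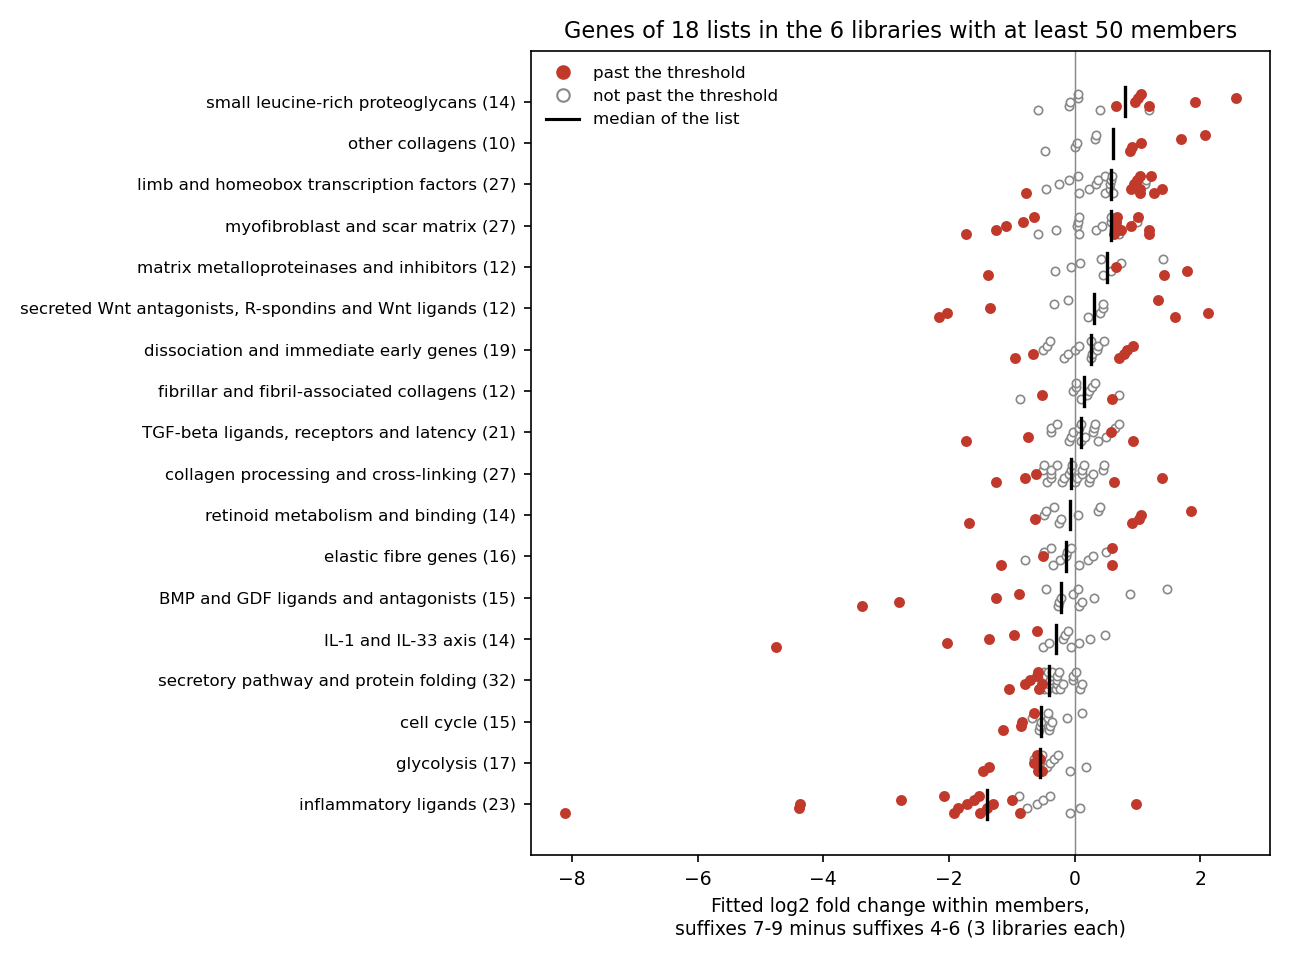
Difference between suffixes 7 to 9 and 4 to 6 in members for the genes of 18 lists. The horizontal axis is the fitted log2 difference, the vertical axis the list, each point is a gene, red points passed the test and the line is the median; the fitted value of *Cxcl13* is measured against 0 UMIs and rule genes are among the points.

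Genes of limb identity and of metabolism also differed. Limb and homeobox factors had 9 of 26 called, 8 higher in 7 to 9 (median 0.57), with *Prrx1*, a factor of limb mesenchyme, at 114, 109.5 and 124 CPM in suffixes 4 to 6 and 236, 265 and 234 in 7 to 9 (log2 1.03 ± 0.12, adjusted p = 0.000213). Glycolysis had 7 of 17, all in 4 to 6 (median -0.55), with the glucose transporter *Slc2a1* (log2 -1.45 ± 0.21, adjusted p = 0.00111) and *Ldha* (log2 -0.55 ± 0.14, adjusted p = 0.0228). *Hk2* was at 151 CPM (rest 1), 147, 181 and 162 (suffixes 4 to 6), 98.5, 83 and 152 (7 to 9) and 134, 288 and 167 (10 to 12), lower in 7 to 9 than in 4 to 6 (log2 -0.64 ± 0.20, adjusted p = 0.0466) but not different over the 4 runs (edgeR adjusted p = 0.142). Transcripts for sugar uptake and lactate production were thus higher in the chemokine-rich members. Secretory genes had 7 of 32, all in 4 to 6 (median -0.41), and collagen processing 5 of 27 (3 in 4 to 6, median -0.06). Cell cycle genes had 4 of 15, all in 4 to 6 (-0.53), dissociation and immediate early genes 6 of 19 (4 in 7 to 9, 0.26) and retinoid genes 6 of 13 (4 in 7 to 9, 0.06). Of genes outside the lists, chosen after the values were seen, the zinc transporter *Slc39a14* (log2 -2.23 ± 0.17, adjusted p = 3.81e-05) and *Nrep* (log2 2.13 ± 0.17, adjusted p = 3.81e-05), a neuronal regeneration protein also made by fibroblasts, had the lowest p on either side.

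Over the 4 runs the small libraries stood apart. The rule gene *Gsn* was at 7914 CPM (rest 1), 630.5, 969 and 646 (suffixes 4 to 6), 1029.7, 839 and 826 (7 to 9) and 5369, 3799 and 5937 (10 to 12). *Tnxb*, tenascin X, which holds collagen fibrils together, was at 272 CPM (rest 1), 16.2, 20.5 and 19.8 (suffixes 4 to 6), 62.4, 53.8 and 31.6 (7 to 9) and 303, 217 and 258 (10 to 12) (edgeR adjusted p over runs = 7.97e-07). The protease inhibitor cystatin C, *Cst3*, was at 5547 CPM (rest 1), 794, 1074 and 866 (suffixes 4 to 6), 1187, 1179.7 and 1112 (7 to 9) and 5369, 11563 and 7328 (10 to 12) (edgeR adjusted p = 2.37e-06). *Gsn* and *Cst3* are abundant in resting fibroblasts of many tissues, and the few members of the small libraries held far more of both than the many of the large ones. For *Gsn* this was not confined to members. Other fibroblasts averaged 10481 CPM of it over the 10 libraries and 5468 CPM over the 6 large ones. Carboxypeptidase E, *Cpe*, was at 460.2 CPM (rest 1), 8.29, 13.4 and 14.7 (suffixes 4 to 6), 54.7, 41.5 and 44.5 (7 to 9) and 193, 113 and 399.7 (10 to 12) (edgeR adjusted p = 3.71e-06), and the BMP antagonist *Nbl1* at 1375 CPM (rest 1), 164, 324 and 219 (suffixes 4 to 6), 929, 759 and 949 (7 to 9) and 2054, 2461 and 2789 (10 to 12) (edgeR adjusted p = 4.89e-06). The water channel *Aqp1* was at 1496 CPM (rest 1), 70.1, 145 and 80.5 (suffixes 4 to 6), 417, 371 and 264 (7 to 9) and 3472, 1801 and 1224 (10 to 12) (edgeR adjusted p = 9.83e-06). The proprotein convertase *Pcsk5* did the opposite, at 6.06 CPM (rest 1), 293, 215 and 220.1 (suffixes 4 to 6), 72.2, 58.5 and 38.7 (7 to 9) and 11.7, 18.9 and 16.7 (10 to 12) (edgeR adjusted p = 2.37e-06).

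*P4hb* and *Serpinh1*, which act on collagen before its export, were lower in suffixes 10 to 12 than in 4 to 9. *P4hb*, a subunit of the enzyme that hydroxylates collagen, was at 260.4 CPM (rest 1), 949, 862 and 943 (suffixes 4 to 6), 679.5, 718 and 627 (7 to 9) and 298, 292 and 333 (10 to 12) (edgeR adjusted p = 9.83e-06), and the collagen chaperone *Serpinh1* at 3276 CPM (rest 1), 3255, 3135 and 3431 (suffixes 4 to 6), 2872, 2920.1 and 2594 (7 to 9) and 1149.7, 1230.3 and 1374 (10 to 12) (edgeR adjusted p = 1.51e-05). Fibrillin 1, *Fbn1*, was at 169.5 CPM (rest 1), 404, 463 and 516 (suffixes 4 to 6), 441, 621 and 441 (7 to 9) and 158, 141 and 133 (10 to 12) (edgeR adjusted p = 5.04e-05). In rest 1 *P4hb* and *Fbn1* were about as low as in suffixes 10 to 12, whereas *Serpinh1* was as high as in the large libraries. Over the 4 runs, against 16.4% of all genes, 20 of 32 secretory genes differed (19 highest in 4 to 6), 14 of 28 of collagen processing (11 in 4 to 6), 11 of 17 of glycolysis (all in 4 to 6), 10 of 15 elastic fibre genes (8 in 4 to 6) and 16 of 26 inflammatory ligands (11 in 4 to 6). Proteoglycans had 8 of 12, highest in 1 to 3 (4), in 10 to 12 (3) or in 7 to 9 (1). Fibrillar collagens had 7 of 11, 4 highest in 7 to 9 and 3 in 1 to 3, with *Col1a1* at 12686 CPM (rest 1), 9555, 9330.3 and 10895 (suffixes 4 to 6), 9987, 12072 and 9363 (7 to 9) and 4126, 7292 and 7686 (10 to 12) (edgeR adjusted p = 0.021) and *Col3a1* at 7387 CPM (rest 1), 8663, 9983 and 9032 (suffixes 4 to 6), 10111, 12038 and 10778 (7 to 9) and 3834, 7490.0 and 7594 (10 to 12) (edgeR adjusted p = 0.0354). *Col1a1* was thus lower in each library of suffixes 10 to 12 than in any other, while *Col3a1* in resolving 3 and resolved 3 came above rest 1. *Acta2*, the actin of myofibroblasts, was at 109 CPM (rest 1), 296, 190.2 and 255 (suffixes 4 to 6), 241, 353 and 560.1 (7 to 9) and 23.3, 47.1 and 142 (10 to 12) (edgeR adjusted p = 0.00252).

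The difference between members and other fibroblasts changed with the run for 293 of 13189 genes (2.22%) by edgeR (110 with the largest excess in members in suffixes 1 to 3, 66 in 4 to 6, 56 in 7 to 9 and 61 in 10 to 12). In the 6 libraries there were 78 of 11525 (0.677%). The count was 142 without rest 1 and 443 without resolving 3. *Anxa3*, an annexin, passed with 10 libraries (edgeR adjusted p = 1.13e-06) and with 6 (adjusted p = 0.000717). Members had 60.6 CPM (rest 1), 70.8, 73.2 and 80.2 (suffixes 4 to 6), 165, 123 and 145 (7 to 9) and 52.5, 70.7 and 49.96 (10 to 12) and others 95.1 CPM (rest 1), 93.7, 66.4 and 80.7 (suffixes 4 to 6), 68.6, 65.4 and 50.9 (7 to 9) and 101, 148 and 134 (10 to 12), so that members exceeded others in each library of suffixes 7 to 9 and elsewhere only in rest 2, by little. *Ccl5*, a T cell chemokine, passed in both as well (edgeR adjusted p = 3.13e-08 and 3.9e-06). Members had 0 CPM (rest 1), 5.65, 162 and 66.9 (suffixes 4 to 6), 5.47, 3.3 and 3.52 (7 to 9) and 0, 0 and 0 (10 to 12) and others 4.02 CPM (rest 1), 1.45, 6.17 and 3.17 (suffixes 4 to 6), 17.8, 12.9 and 0.984 (7 to 9) and 0.811, 0 and 1.25 (10 to 12), which puts the excess in rest 2 and peak 2 while resolved 1 of the same run had little. *Saa3* was at 10.6 CPM (rest 1), 1003, 942 and 526 (suffixes 4 to 6), 711, 462 and 339 (7 to 9) and 5.68, 1.84 and 69 (10 to 12) in other fibroblasts. Members therefore held more of it in each library of 7 to 9 but less in resolved 1 and rest 2. With 10 libraries it passed (edgeR adjusted p = 5.61e-06), with 0 UMIs in members of rest 1 and of suffixes 10 to 12. Its result in the 6 libraries alone is not given here.

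The other genes among the lowest p did not pass in the 6 libraries. *Ibsp*, the bone sialoprotein, was at 2077 CPM (rest 1), 12.4, 39.7 and 20.1 (suffixes 4 to 6), 91.9, 8.49 and 90.2 (7 to 9) and 2772, 801 and 183 (10 to 12) in members and 2537 CPM (rest 1), 237, 473 and 348 (suffixes 4 to 6), 488, 315 and 754 (7 to 9) and 1211, 1133 and 522 (10 to 12) in others (edgeR adjusted p = 5.07e-06, and 0.709 in the 6 libraries). Cathepsin K, *Ctsk*, was at 1126 CPM (rest 1), 197, 307 and 234 (suffixes 4 to 6), 558, 535 and 468 (7 to 9) and 1395, 2446 and 1649 (10 to 12) in members and 508 CPM (rest 1), 322, 454 and 395 (suffixes 4 to 6), 838, 925 and 929 (7 to 9) and 636, 1136 and 784 (10 to 12) in others (edgeR adjusted p = 3.13e-08, and 0.657 in the 6). The collagenase *Mmp13* was at 2022 CPM (rest 1), 128, 208 and 273 (suffixes 4 to 6), 219.9, 187 and 548 (7 to 9) and 368, 594 and 208 (10 to 12) in members and 721 CPM (rest 1), 276, 585 and 483 (suffixes 4 to 6), 483, 368 and 677 (7 to 9) and 278, 410.0 and 135 (10 to 12) in others (edgeR adjusted p = 3.56e-06, and 0.707 in the 6). These are genes of bone-forming and bone-resorbing cells, and members of rest 1 carried nearly as much *Ibsp* as the fibroblasts around them while those of suffixes 4 to 9 carried far less. In rest 1, 3 of the 13 members had at least 3 osteoblast markers, and their part in these levels was not tested. The small heat shock protein *Hspb1* (edgeR adjusted p = 5.61e-06, and 0.229 in the 6) and *Fbln7* (1.91e-07 and 0.0814, edgeR adjusted p) also failed to pass in the 6. By list, 7 of 12 proteoglycans, 6 of 15 elastic fibre genes, 5 of 11 fibrillar collagens, 5 of 14 other collagens, 10 of 29 myofibroblast genes, 6 of 15 metalloproteinases and inhibitors and 6 of 30 inflammatory ligands passed against 2.22% of all genes. There were 2 of 19 glycolysis genes, 1 of 32 secretory genes, 1 of 22 TGF-beta genes, 0 of 36 limb factors and 0 of 17 genes of the IL-1 and IL-33 axis. No difference between lists was tested.

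Between labels, 0 of 8362 genes (0%) differed in members by edgeR at peak, resolving or resolved relative to rest, with 47, 111 and 49 genes under an unadjusted p of 0.05. Peak rests on peak 2 and peak 3 here, and resolving on resolving 2 and resolving 3. On simulated data the test at peak recovered 0% of genes changed by log2 1, 32.5% by log2 2 and 81.5% by log2 3. DESeq2 gave 0, 0 and 0, with 21, 67 and 30 under 0.05. Leaving out peak 2 gave 1 gene at peak, and leaving out resolving 2 gave 1 at resolving. Each leaves 1 library under that label, and the spread is taken from the other labels. The 6 libraries gave 0, 0 and 0 of 10557, with 182, 255 and 231 under 0.05. They hold 1 library labelled peak and 1 labelled resolving, each assumed to vary like the others. No gene of the 18 lists passed in any of the 3 comparisons. The list medians at peak were for example -0.37 for fibrillar collagens, -0.43 for proteoglycans and 0.10 for inflammatory ligands, against 0.01 over all genes. At resolving they were larger for some lists, at -0.91 for the cell cycle, -0.65 for the Wnt list, 0.64 for proteoglycans and -0.47 for inflammatory ligands. Over all genes the median at resolving was -0.01. Genes of inflammation and matrix with known roles in arthritis did not pass at peak: *Ccl2* had log2 0.40 ± 0.58, *Timp1* 0.12 ± 0.90, *Cxcl1* 0.02 ± 0.49, *Cxcl2* -0.68 ± 0.74, *Mmp3* 0.44 ± 0.82, *Postn* -0.66 ± 0.81, *Col1a1* -0.49 ± 0.48, *Col3a1* -0.57 ± 0.47, *Acta2* -0.96 ± 0.86 and *Hk2* -0.15 ± 0.46 (± SE, edgeR adjusted p = 1). Libraries of the same label lay in different runs, and the SE is as large as most of these values.

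The lowest p of each comparison, with an edgeR adjusted p of 1, belonged to genes without a common role. At peak these were *Tctn1* (log2 3.52 ± 1.08), *Usp9x* (0.97 ± 0.33) and *Nsd1* (1.0 ± 0.34) above rest and *Saa1* (-4.33 ± 1.37), *Adm* (-1.39 ± 0.54) and *Ctsc* (-1.19 ± 0.49) below. *Tctn1* was at 12.1 CPM (rest 1), 6.4, 11.3 and 7.85 (suffixes 4 to 6), 8.75, 11.8 and 14.1 (7 to 9) and 344, 9.43 and 16.7 (10 to 12), so that peak 3 alone makes the difference. At resolving they were *Dfna5* (2.48 ± 0.68), *Ifit1* (2.69 ± 0.83) and *Atxn3* (2.21 ± 0.70) above and *Cenpn* (-6.10 ± 2.00), *Ctsc* (-1.60 ± 0.53) and *Aff1* (-2.10 ± 0.76) below. At resolved they were *Ostn* (4.81 ± 0.97), *Nsd1* (1.34 ± 0.30) and *Hist1h2ap* (3.34 ± 0.94) above and *Mmp13* (-2.42 ± 0.68), *Saa1* (-3.15 ± 0.94) and *Ccl5* (-3.99 ± 1.28) below. With the suffix run as a block, so that labels are compared inside runs, 2 genes passed at peak, 0 at resolving and 6 at resolved. At resolved these were the histones *Hist1h2ap* (log2 4.07, edgeR adjusted p = 0.00152), *Hist1h1b* (3.47, 0.0023) and *Hist1h1e* (2.93, 0.0233), the glycolytic *Pgk1* (1.69, 0.0346), *Ostn* (4.68, 0.0399) and *Ccl5* (-4.00, 0.035), and at peak *Hist1h1b* (3.13, 0.037) and *Hist1h2ap* (3.33, 0.037). Peak and rest meet inside a run only in suffixes 4 to 6, as peak 2 and rest 2. Resolving and rest meet only in 7 to 9, as resolving 2 and rest 3, and resolved and rest in both. Rest 1 is alone in its run, so these calls rest on few libraries and nothing is read from them. Histone messages mark cells copying DNA, though *Hist1h2ap* is one of many near-identical copies and the assignment of its reads is uncertain.

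The difference between members and others changed with the label for 1 of 12413 genes at peak (0.00806%) and for 0 at resolving and 0 at resolved by edgeR, with 272, 351 and 255 genes under an unadjusted p of 0.05; no other tool was run on it. The gene was *Saa1* (log2 -5.55 ± 0.85, edgeR adjusted p = 0.025), at 0 CPM (rest 1), 2.26, 27.2 and 0.341 (suffixes 4 to 6), 13.1, 1.41 and 9.37 (7 to 9) and 5.84, 0 and 0 (10 to 12) in members and 7.34 CPM (rest 1), 39.3, 48.2 and 47.8 (suffixes 4 to 6), 184, 7.23 and 3.61 (7 to 9) and 25.1, 9.19 and 17.3 (10 to 12) in others. *Saa1* resembles *Saa2* closely, and its reads are uncertain. *Saa1* did not pass without peak 2 (-1.77, adjusted p = 0.925), nor without rest 2 (-6.77, adjusted p = 0.0879) or resolved 3 (-5.55, adjusted p = 0.0503), where its size was kept. Without peak 2 the count at peak was 8; without resolving 2 that at resolving was 9, and without rest 1 it was 1. At resolved the count was 2 without resolved 1 or rest 3 and 1 without resolved 2 or rest 1.

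Transcripts of other cell types in members ranged from few to many. Of 6 immune markers the sum was 12.1 CPM in rest 1, 3.39, 5.44 and 9.22 in suffixes 4 to 6, 15.3, 8.96 and 4.69 in 7 to 9, and 0, 42.4 and 0 in 10 to 12, with *Lyz2* the most abundant, and 0 of 1119 members had at least 2 of them (up to 0.268%). Osteoblast markers, led by *Ibsp*, summed to 2198 CPM in rest 1, 37.7, 50.6 and 32.8 in suffixes 4 to 6, 152, 36.3 and 110.1 in 7 to 9, and 3216, 891 and 708 in 10 to 12. At least 3 tenocyte markers were found in 188 members, chondrocyte markers in 90 and osteoblast markers in 14. Of these 14, 3 were among the 13 members of rest 1, 2 of 2 in peak 1 and 1 of 1 in resolving 1. Peak 3, resolving 3 and resolved 3 had 1 each, among 11, 23 and 11 members. The 6 larger libraries had 1, 2, 0, 1, 0 and 1 in order of suffix. Summed bone transcripts were highest in the members of the small libraries, where such cells were a larger part. How much of the sums they make was not tested. Tenocyte markers (*Thbs4*) summed to 840.4 to 1859 CPM and chondrocyte markers (*Sox9*) to 33.3 to 448. Endothelial markers (*Cldn5*) summed to 5.84 to 56.6 CPM, perivascular (*Rgs5*) to 5.84 to 127, muscle (*Des*) to 6.06 to 66.6 and Schwann cell markers (*S100b*) to 5.46 to 81.7. Erythroid markers (*Hbb-bs*), which fibroblasts do not make, summed to 268 to 1751 CPM in members and to 359.7 to 2640.0 in other fibroblasts, and were lower in members in 8 of 10 libraries. At least 2 of them were found in 76.3% of members and 46.2% of other fibroblasts, which are shallower.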

How the data were processed

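Deposited counts of UMIs for each cell were used, which the authors made with Cell Ranger (v2.1.1) against mm10 before their limits on cells; 3 files were given per library. The median of UMIs per cell is the same in the 12 libraries, and whether reads were brought to one depth before counting is not stated. No doublet caller was run. Members, lists and the runs as groups were chosen with earlier results of these data known. Cells with more than 500 and fewer than 5000 genes were kept. UMIs were summed over members, and over the other fibroblasts, in each of the 10 libraries with at least 10 members, with 120095 to 2930033 UMIs in the sums of members. Levels are CPM of these sums.

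The sums were tested with edgeR (4.0.16, quasi-likelihood, TMM, filterByExpr, limma 3.58.1) for differences over the 4 runs of suffixes, for each label against rest, and for either by membership with the library as a block, with Benjamini-Hochberg adjusted p. A gene was called at an adjusted p under 0.05 and, outside the interactions, a log2 difference over 0.5. Shares were tested by exact permutation of the 12 libraries. Members and other fibroblasts were compared per library without a test, with a pseudocount of 1 CPM, and a gene was counted at a mean log2 difference over 1, the same direction in every library and at least 20 CPM in the higher set. Where every library of a group had 0 UMIs, the bound takes 3 UMIs over that group. The fits were tested on simulated data in which 200 genes changed by log2 1, 2 or 3. The test at peak recovered 0%, 32.5% and 81.5% of them in that order. The test over runs with 10 libraries recovered 47%, 82% and 89%, and the run interaction 8%, 73.5% and 89%. Where genes were called, 2.65% to 11.1% of the calls were false. R 4.3.3, DESeq2 1.42.0, Python 3.11.15, numpy 2.4.6, scipy 1.17.1 and pandas 2.3.3 were used.

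Genes named are the rule genes and *Cthrc1*, *Hk2* and 9 genes of the study, the 20 most higher and 10 most lower genes in members, the 15 lowest p of the run test and 5 more per run, the 10 lowest of the run interaction, 3 each way per label, and in each list up to 6 of the highest level with those called. Predicted genes and haemoglobin, immunoglobulin, mitochondrial and ribosomal genes were left out, and not all of these are printed. Others were chosen after the values were seen, as stated with them. The 18 lists, counted with medians and given no set test, were fibrillar collagens, other collagens, collagen processing, myofibroblast and scar matrix, TGF-beta, the IL-1 and IL-33 axis, retinoids, matrix metalloproteinases and inhibitors, inflammatory ligands, the secretory pathway, Wnt antagonists and ligands, BMP and GDF ligands and antagonists, limb and homeobox factors, small leucine-rich proteoglycans, elastic fibres, dissociation and immediate early genes, the cell cycle and glycolysis. The 7 motifs searched in 300 bases were the TATA box (TATAAA), the CCAAT box, the AP-1 site (TGACTCA), the E-box (CACGTG), a retinoic acid response element, a Smad palindrome and a Runx site.

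Alternatives were at least 4 or 2 member genes, the upper limits of the study on UMIs, at most 10% mitochondrial UMIs, removal of cells with 2 markers of another cell type, thinning to 2000 UMIs, all cells as denominator, RLE or total counts, no filter, DESeq2, the replicate number or suffix run as a block, the label as covariate, each library left out, other fibroblasts matched in UMIs in 10 bins, a pseudocount of 10 CPM, no minimum level, and, for the run interaction, other fibroblasts without the *C1qtnf3* set. Residuals of libraries with the same replicate number correlated at -0.226 to 0.337 over 8362 genes, and the own number was the best match in 4 of 10 libraries, so the numbers do not pair the samples and no pairing was used.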

Additional observations from a re-analysis of the deposited data

Results flagged for a closer look

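The difference between members and other fibroblasts changed with the run for 293 genes by the edgeR test of the interaction itself, with 10 libraries. The 10 lowest adjusted p were 3.13e-08 for *Ccl5*, 3.13e-08 for *Ctsk*, 1.58e-07 for *Il1rl1*, 1.91e-07 for *Fbln7*, 4.44e-07 for *C1qtnf3*, 1.13e-06 for *Anxa3*, 2.31e-06 for *Lum*, 3.56e-06 for *Mmp13*, 5.07e-06 for *Ibsp* and 5.61e-06 for *Hspb1*. *Il1rl1*, *C1qtnf3* and *Lum* are among the genes that chose the members, so their p are no evidence of a difference and count as values only. In the 6 libraries with at least 50 members the edgeR adjusted p was 3.9e-06 for *Ccl5* and 0.000717 for *Anxa3*, while it was 0.0814 for *Fbln7*, 0.114 for *Il1rl1*, 0.229 for *Hspb1*, 0.493 for *Lum*, 0.635 for *C1qtnf3*, 0.657 for *Ctsk*, 0.707 for *Mmp13* and 0.709 for *Ibsp*. Of the 7 genes outside the rule, 5 thus did not pass without the 4 libraries of 11 to 23 members. By label, the difference between members and others changed for *Saa1* at peak (adjusted p = 0.025), a gene with a near-identical copy and few UMIs.

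Limits bear on all of these. Each library is a pool of 3 animals, and the labels do not group the libraries, whose right labelling cannot be told from the data, so no result by label is a statement on the course of arthritis. The runs are read from barcodes and were taken as groups with earlier results of these data known. Suffixes 1 to 3 have a lone library, rest 1, in the tests of genes. The rule favours deeper cells. UMIs give the level of transcripts and not of proteins. The cause of the differences between runs was not tested.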

How the results depend on the processing

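Genes differing over the runs in members, 1561 with the settings of the report, numbered 301 with at least 4 member genes and 3529 with at least 2, 142 with cells carrying markers of another cell type removed, 70 with cells thinned to 2000 UMIs, 2428 with no filter on low counts, 2708 by DESeq2, 942 with the label as a covariate and 552 with the replicate number as a block. The replicate number does not pair the samples, its own number being the best match in 4 of 10 libraries. Leaving out 1 library at a time gave 967 to 1678. RLE gave 1522, total counts 1473, the upper limits of the study on UMIs 1452, and the 6 libraries with at least 50 members 1129. For 20 named genes all 376 values kept direction and call, but the tests in the 6 libraries are not among these values. *Hp*, which is among the 20 genes, did not pass in the 6 libraries. The number of libraries moves with the setting, being 6 with at least 4 member genes, 12 with at least 2, 5 with other cell types removed and 6 after thinning, in place of 10, and the cause of the shifts in the count was not tested.

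Run by membership, 293 genes, gave 43 with at least 4 member genes, 534 with at least 2, 26 with cells carrying markers of another cell type removed, 14 after thinning, 558 with no filter, 78 in the 6 libraries, and 142 to 443 with 1 library left out, while other fibroblasts without the *C1qtnf3* set gave 241. Of 166 values for 10 named genes 164 kept the call, but the tests in the 6 libraries are not among these values. *Ccl5* (adjusted p = 0.079) and *Hspb1* (0.055, edgeR adjusted p) lost it with at least 2 member genes. In the 6 libraries only *Ccl5* and *Anxa3* of the 10 genes passed.

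Label comparisons in members had 0 genes at peak, resolving and resolved. The removal of cells with markers of another cell type leaves 5 libraries, so that labels with 1 library are assumed to vary like the others. Nothing is read from its counts. The same holds with the suffix run as a block, where peak 2 and rest 2 alone compare peak with rest directly. Removing cells with markers of another cell type gave 29, 39 and 28, no filter on low counts 17, 21 and 21, the suffix run as a block 2, 0 and 6, and the replicate number as a block 0, 0 and 0. Leaving out 1 library gave 0 to 1 at peak, 0 to 1 at resolving and 0 at resolved, a label left with 1 library being assumed to vary like the others.

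Label by membership gave 1, 0 and 0 genes. At least 4 member genes and thinning leave 6 libraries, and the removal of other cell types 5. Labels with 1 library are assumed there to vary like the others, as in the 6 libraries and without peak 2 or resolving 2. Nothing is read from these counts. At peak it was 21 with at least 4 member genes, 0 with at least 2, 11 with cells carrying markers of another cell type removed, 0 after thinning, 16 with no filter, 0 with RLE, 0 with total counts, 0 in the 6 libraries, and 0 to 8 with 1 library left out. At resolving it was 27 with at least 4 member genes, 19 with other cell types removed, 3 after thinning, 32 with no filter, 2 with the upper limits on UMIs, and 0 to 9 with 1 library left out. At resolved it was 18 with at least 4 member genes, 1 with at least 2, 14 with other cell types removed, 17 with no filter, and 0 to 2 with 1 library left out. *Saa1* lost its call in 9 of 20 alternatives.

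Genes higher in members, 14, and lower, 137, without a test, became 53 and 226 with at least 4 member genes, 9 and 72 with at least 2, 52 and 245 with other cell types removed, 66 and 302 after thinning, and 7 and 72 with other fibroblasts matched in UMIs. These rest on 6, 12, 5, 6 and 8 libraries in that order, and a rule asking for the same direction in every library counts more genes where there are fewer. With the upper limits on UMIs 9 were higher, with a pseudocount of 10 CPM 9, and with no minimum level 413 were lower. The 6 libraries gave 41 higher, other fibroblasts without skeletal markers 27, and removal of other cell types with the erythroid list left out 9. These 3 settings and the tests in the 6 libraries were chosen after seeing the data. With 1 library left out there were 11 to 19 higher and 130 to 167 lower. Of 550 values for 25 named genes 518 stayed within 1 SD, 30 moved and 2 reversed: *Kcnn4* (log2 -1.02) and *Ociad2* (-0.47), both after thinning.

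The share of members differed over the runs in each setting, with F of 58.9 becoming 52.1 with at least 4 member genes, 53.2 with at least 2, 15.5 with other cell types removed (exact p = 0.0027), 38.2 after thinning and 42.9 to 87.3 with 1 library left out. By label, the peak difference of -1.78 points ranged from -7.30 to 1.07 with 1 library left out, being 1.07 without peak 1, 0.986 without rest 2 and 0.876 without peak 3. The resolved difference of 1.91 points ranged from -1.84 to 6.18, being -1.84 without resolved 1 and -1.48 without rest 1, and was -1.20 with other cell types removed. The resolving difference ranged from -8.26 to -2.10.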
